A study of Mus musculus with 9 samples.

Results

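The common gamma chain cytokine receptors are the receptor subunits that use, or are, the shared chain encoded by Il2rg. All 8 genes of the family, Il2ra, Il2rb, Il2rg, Il4ra, Il7r, Il9r, Il15ra and Il21r, were looked up by symbol among the 23234 genes of each deposited table, and each was found in all 9 libraries. The cells were group 2 innate lymphoid cells (ILC2s, tissue lymphocytes that make type 2 cytokines) of wild-type C57BL/6 mice, taken from fat-associated lymphoid clusters. They were kept for 48 h in 1 of 3 conditions, with 3 RNA sequencing libraries each: IL-33 (an alarmin that activates ILC2s), IL-33 with IFN-γ (the type II interferon), or IL-33 with IL-27 (a cytokine of the IL-12 family). Every cytokine was given at 10 ng/ml, so all 3 groups received IL-33, and the group with IL-33 alone served as the control. No unstimulated cells and no group with IFN-γ or IL-27 alone are among these samples. Whether the libraries of a group came from separate cultures or separate mice is not stated, and the p-values below thus reflect only how much these libraries varied, which may be technical.

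The common gamma chain has no ligand of its own. It joins with a specific chain to receive IL-2, IL-4, IL-7, IL-9, IL-15 or IL-21, and passes the signal on through the kinase JAK3, while the partner chain carries JAK1. The JAKs then phosphorylate STAT proteins, mainly STAT5 after IL-2, IL-7, IL-9 and IL-15, STAT6 after IL-4 and STAT3 after IL-21. ILC2s are known to depend on IL-7 for their development and to respond to IL-2, IL-7, IL-4 and IL-9.

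The levels are FPKM, fragments per kilobase of transcript, normalised to the mapped fragments of the library, which allow genes of different length to be compared. The FPKM total of a library was 628625 to 672534, and 10504 to 11004 genes had at least 1 FPKM. From the steps between low values a single fragment was estimated to add 0.513 to 0.562 FPKM to a gene of 2 kb, a figure that rests on gene lengths of an annotation other than the authors'. All 11 ILC2 markers looked up, among them Gata3, Rora, Il1rl1 and Klrg1, had a mean of at least 1 FPKM, while Cd4, Gzma, Pax5, Csf1r and Kdr, 5 markers of other cell types, were listed at 0 in every library. Other markers were present: of 7 macrophage or dendritic cell genes listed only Cd68 had a mean of at least 1 FPKM, at 1.16 to 18.8 FPKM (means 4.98 with IL-33 alone, 12.3 with IFN-γ and 6.90 with IL-27), and of 5 mast cell genes only Fcer1a, at 0 to 8.3 FPKM. The macrophage sum was 3.54 to 10.3 FPKM with IL-33 alone, 5.30 to 19.5 with IFN-γ and 1.16 to 17.6 with IL-27, and the part it plays in any result was not tested. Of 5 NK cell genes, Gzma among them, 0 had a mean of at least 1 FPKM. The NK cell sum was 0 to 0.6 FPKM with IL-33 alone, 1.45 to 2.8 with IFN-γ and 0.519 to 0.8 with IL-27. It was thus low but wholly higher with IFN-γ, and its part in any result was not tested either. Cd3g and Cd79b, genes of lymphocyte antigen receptors, were present in every library at 28.4 to 97.6 and 20.3 to 83.9 FPKM, whereas Cd3e reached at most 2.51 FPKM. The libraries numbered 3 stood apart: the summed level of 8 fibroblast genes was 36.2 to 86.5 FPKM in them and 2.92 to 17.6 FPKM in the libraries numbered 1 and 2. By group that sum ran from 2.92 to 36.2 FPKM with IL-33 alone, from 3.94 to 86.5 FPKM with IFN-γ and from 7.67 to 63.7 FPKM with IL-27. The summed level of the 6 T cell genes listed, nearly all of it Cd3g, was also higher there, 76.1 to 101.6 FPKM against 28.7 to 45.0 FPKM, as was that of 5 mast cell genes, 5.7 to 9.3 FPKM against 0 to 2.51 FPKM. Where leaving out the libraries numbered 3 changed a call, in the model without or with the pairing described below, the adjusted p is given beside the gene. This was not examined for Il5, Il1rl1, Pim2, Il27ra, Csf2rb, Csf2rb2, Irs2, Ccnd2 or Lta, nor for list genes between IFN-γ and IL-27. Of the 11 ILC2 markers, Il5 and Il13 fell with IFN-γ in the limma test described below. Their log2 differences were -1.55 and -1.30 (adjusted p = 0.0167 and 0.0282), where 0.717% of all tested genes fell. In such bulk samples, fewer cells of a type and less RNA per cell cannot be told apart.

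Il2ra and Il15ra, the genes of the private α chains for IL-2 and IL-15, were the receptor genes that passed the test with IFN-γ, and they moved in opposite directions. The test was limma on log2(FPKM + 1), and a gene passed when its p-value, adjusted by the Benjamini-Hochberg method over 11014 genes, was under 0.05. With IFN-γ, 1 of the 7 tested receptor genes rose (Il15ra), where 2.19% of all tested genes rose, and 1 fell (Il2ra), where 0.717% of all tested genes fell. With IL-27, 0 of 7 rose and 0 of 7 fell, where 0.908% of all tested genes rose and 0.118% fell. Il21r was too low to be tested. When libraries of one number were treated as a pair, as a replicate block in the model, Il4ra also fell with IFN-γ and Il2ra also fell with IL-27. That made 1 of 7 higher and 2 of 7 lower with IFN-γ, against 6.51% and 4.66% of all genes, and 0 higher and 1 lower with IL-27, against 3.37% and 1.78%. The comparisons of IFN-γ and of IL-27 with IL-33 share the same 3 control libraries, so they are not independent of each other.

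**Figure D1:**
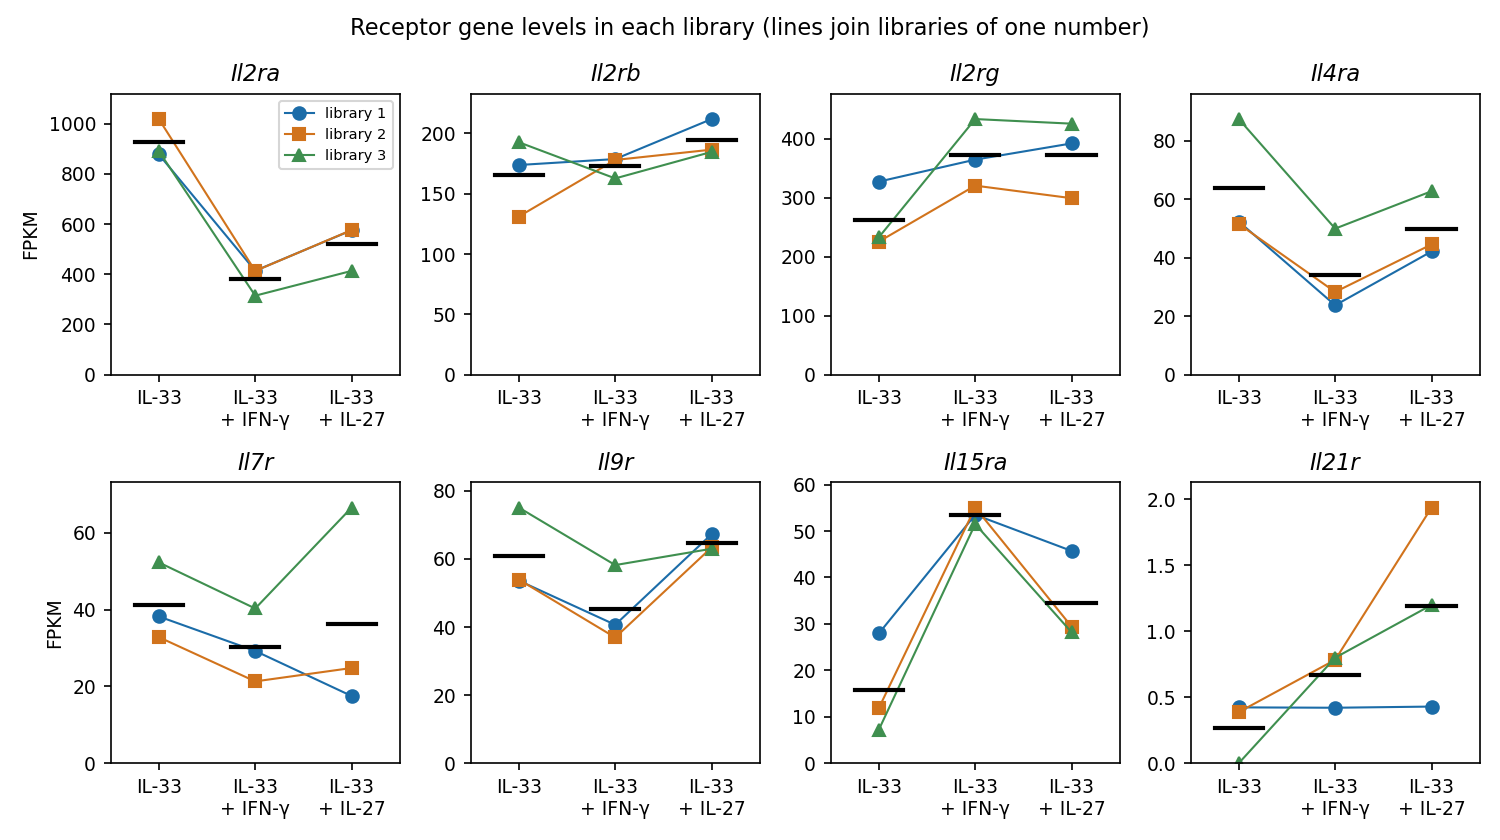
Level of each of the 8 receptor genes (FPKM, vertical axis from 0, a scale of its own per gene) in the 3 libraries of each group; symbols and colours give the library number, lines join libraries of one number, and black bars are group means. Il2ra with IFN-γ lies at 314.5 to 414 FPKM, below all IL-33 libraries (877 to 1018), and Il15ra with IFN-γ lies at 51.5 to 55.1 FPKM, above all IL-33 libraries (7.20 to 27.9).

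Il2ra and Il15ra are neighbours in the genome. In build mm9 (GENCODE vM1 annotation) Il2ra (ENSMUSG00000026770.4) occupies chr2:11564419-11614818 and Il15ra (ENSMUSG00000023206.9) chr2:11626914-11655613, both on the plus strand, 12.1 kb apart with no annotated gene between them. The windows around their RefSeq start sites, 250 bases before to 50 bases after, are shown because these genes moved in opposite directions from adjacent positions. They are written 5′ to 3′ on the plus strand and their coordinates are those of build GRCm38.p6, which differ from the mm9 positions above. Il2ra has 1 such window, chr2:11642542-11642841, and Il15ra has 2 in RefSeq, of which the downstream window, chr2:11705462-11705761, is printed. Capitals mark letters that match a searched motif: in Il2ra the NF-κB consensus, in Il15ra the IRF core AANNGAAA.

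Il2ra: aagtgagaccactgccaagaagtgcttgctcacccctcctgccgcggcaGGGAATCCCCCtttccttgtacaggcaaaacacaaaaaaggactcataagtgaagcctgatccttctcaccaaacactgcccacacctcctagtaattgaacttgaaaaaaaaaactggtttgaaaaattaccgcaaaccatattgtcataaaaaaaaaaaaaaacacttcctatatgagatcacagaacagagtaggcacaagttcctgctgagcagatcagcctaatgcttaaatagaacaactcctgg

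Il15ra: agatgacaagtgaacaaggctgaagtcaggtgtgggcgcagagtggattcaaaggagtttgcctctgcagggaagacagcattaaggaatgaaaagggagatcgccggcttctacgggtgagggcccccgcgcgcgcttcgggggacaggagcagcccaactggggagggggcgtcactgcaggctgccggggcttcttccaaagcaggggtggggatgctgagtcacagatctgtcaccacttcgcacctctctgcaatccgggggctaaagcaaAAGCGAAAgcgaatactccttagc

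The match in Il2ra starts at position -201 from the start site and reads as the consensus on both strands. The match in Il15ra, AAGCGAAA, starts at position 27 after the start site, and the other Il15ra window, chr2:11705043-11705342, holds the same motif on the minus strand at position -187. Of the 8 family members, 7 had a window in the RefSeq table, giving 8 windows in all. Both strands were searched for 4 motifs. The IRF core was in 3 of the 8 receptor windows (Il15ra in both and Il2rg) and in 23.9% of all 32851 windows. The NF-κB consensus was in 2 of 8 (Il2ra and Il4ra) and in 8.46% of all windows. The STAT-type motif TTCNNNGAA was in 1 of 8 (Il7r) and in 8.30% of all windows. The interferon-stimulated response element (TTTC and again TTTC, 2 bases apart), every match of which also contains the IRF core, was in 0 of 8 and in 3.44% of all windows. A match describes the letters and is not evidence of binding.

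Il2ra encodes the α chain of the IL-2 receptor (CD25), which raises the affinity for IL-2 and does not signal itself. It was the most abundant gene of the family with IL-33 alone, at 877, 1018 and 890 FPKM in libraries 1, 2 and 3, and ranked 109 among all 23234 genes by mean level. With IFN-γ the libraries held 414, 413 and 314.5 FPKM, and with IL-27 575, 576 and 413 FPKM. All IL-33 libraries lay above all libraries of the other 2 groups, while the IFN-γ and IL-27 groups overlapped through IL-27 library 3. The group means were 928 ± 77.9 (SD, n = 3), 380 ± 57.1 and 521 ± 93.7 FPKM. Il2ra fell by 1.29 ± 0.18 (SE) on the log2(FPKM + 1) scale with IFN-γ, a 2.45-fold lower level (adjusted p = 0.00495). That call held in all 18 alternative analyses, with adjusted p-values from 4.465e-04 to 0.0288. With IL-27 the log2 difference was -0.84 ± 0.18, or 1.80-fold lower, and did not pass (adjusted p = 0.0795). With the replicate block it passed (adjusted p = 0.00509), as it did with the block and without the libraries numbered 3 (0.0460). Within each pair of equal number, Il2ra with IFN-γ stood at 0.472, 0.406 and 0.353 of the IL-33 level, and with IL-27 at 0.656, 0.566 and 0.464. Of all tested genes, 21.1% were lower in all 3 pairs with IFN-γ and 19.5% with IL-27. In the direct comparison Il2ra was lower with IFN-γ than with IL-27 in 3 of 3 pairs, as were 15.7% of all tested genes. It stood at 0.720, 0.717 and 0.761 of the IL-27 level. The log2 difference of -0.45 had a 95% confidence interval from -0.86 to -0.04 and did not pass (adjusted p = 1, and 0.177 with the block).

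Il15ra encodes the α chain of the IL-15 receptor, which binds IL-15 with high affinity and can present it to neighbouring cells that carry the β and γ chains. With IL-33 alone it was at 27.9, 11.8 and 7.20 FPKM. With IFN-γ it was at 53.5, 55.1 and 51.5 FPKM, and with IL-27 at 45.7, 29.4 and 28.2 FPKM. The 3 groups did not overlap, although the highest IL-33 library (27.9) and the lowest IL-27 library (28.2) nearly met. The 3 IFN-γ libraries lay close together (53.4 ± 1.78, SD, n = 3), while the IL-33 libraries were spread over 15.7 ± 10.9 and the IL-27 libraries over 34.4 ± 9.78 FPKM.

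Il15ra rose by 1.91 ± 0.40 (SE) on the log2(FPKM + 1) scale with IFN-γ, a 3.75-fold higher level (adjusted p = 0.0336). The gene had roughly 14.9 to 122 fragments per library. The direction held throughout, with log2 differences of 1.49 to 2.40, but the call was lost in 6 of 9 omissions of a single library. The adjusted p was 0.115 without IL-33 library 2, 0.0634 without IL-33 library 3 and 0.0584 without IL-27 library 2. It was 0.103, 0.109 and 0.105 without IFN-γ libraries 1, 2 and 3. The call was also lost without the libraries numbered 3 (0.165, and 0.0538 with the block), with only the 2 groups fitted (0.0732) and with no filter on low genes (0.0595). With IL-27 the difference was 1.26 ± 0.40, or 2.39-fold higher, and did not pass (adjusted p = 0.275). Without IL-33 library 1 it was 1.75 and passed (0.0323). That library, the highest for Il15ra in its group, also had the largest share of small RNAs in its FPKM sum, 18.0% against 3.51% to 13.7% in the other 8 libraries, and the part this plays was not tested. In pairs of equal number, Il15ra was 1.92, 4.65 and 7.15 times the IL-33 level with IFN-γ, and 1.64, 2.48 and 3.92 times that level with IL-27. Of all tested genes, 24.4% were higher in all 3 pairs with IFN-γ and 23.1% with IL-27. The direct difference of Il15ra between IFN-γ and IL-27 was 0.65 (95% confidence interval -0.24 to 1.54, adjusted p = 1).

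The annotated genes on the outer sides of the pair did not pass. Rbm17, an RNA-binding splicing factor gene before Il2ra, had log2 differences of -0.48 (adjusted p = 0.322) with IFN-γ and -0.46 (0.537) with IL-27. Fbxo18, a DNA helicase gene after Il15ra, had 0.31 (0.599) and 0.22 (0.854). These values did not pass, which does not show that the genes were unchanged.

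**Figure D2:**
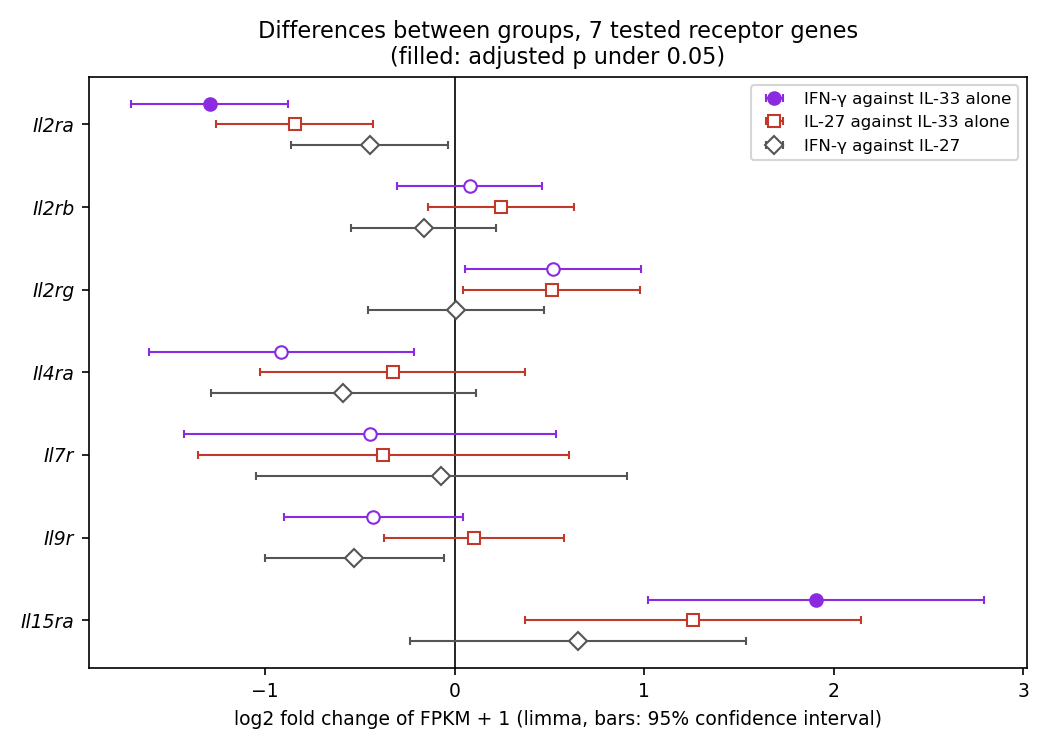
Difference between groups for the 7 tested receptor genes, as log2 fold change of FPKM + 1 with its 95% confidence interval from limma; circles compare IFN-γ with IL-33 alone, squares IL-27 with IL-33 alone and diamonds IFN-γ with IL-27. The filled symbols are the calls, Il2ra at -1.29 and Il15ra at 1.91, both for IFN-γ against IL-33 alone.

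The signalling chains shared between receptors, Il2rb and Il2rg, did not pass in any comparison. Il2rb (ENSMUSG00000068227.2, chr15:78310983-78325496, minus strand) encodes the β chain shared by the IL-2 and IL-15 receptors. It was at 174, 131 and 193 FPKM with IL-33 alone, 179, 178 and 163 with IFN-γ, and 212, 187 and 185 with IL-27. The range of the IL-33 libraries covered all IFN-γ libraries and 2 of the 3 IL-27 libraries. The log2 differences from IL-33 were 0.08 (95% confidence interval -0.31 to 0.46, adjusted p = 0.892) with IFN-γ and 0.24 (-0.14 to 0.63, adjusted p = 0.735) with IL-27. All IFN-γ libraries lay below all IL-27 libraries, by a log2 difference of -0.16 that did not pass (adjusted p = 1).

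Il2rg (ENSMUSG00000031304.12, chrX:98459717-98463594, minus strand), encodes the shared chain. The IL-33 libraries had 327, 225 and 233 FPKM of it, the IFN-γ libraries 364, 320.4 and 433 FPKM, and the IL-27 libraries 391.9, 299 and 425 FPKM. Every library with a second cytokine was above the IL-33 library of its number, by 1.11, 1.42 and 1.86 times with IFN-γ and by 1.198, 1.33 and 1.83 times with IL-27, but the groups overlapped through IL-33 library 1. Of all tested genes, 24.4% were likewise higher in all 3 pairs with IFN-γ and 23.1% with IL-27. The log2 differences were 0.52 ± 0.21 (SE) and 0.51 ± 0.21, with adjusted p-values of 0.268 and 0.463, so neither passed. With IFN-γ and with IL-27 the means were nearly equal, 373 ± 56.9 and 372 ± 65.4 FPKM (SD, n = 3). Their log2 difference was 0.01 with an interval from -0.46 to 0.47.

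Il4ra (ENSMUSG00000030748.7, chr7:132695785-132722986, plus strand) encodes the chain that binds IL-4 and that also forms a receptor for IL-13 together with Il13ra1. Its levels were 52.4, 51.6 and 87.5 FPKM with IL-33 alone, 23.8, 28.3 and 50 with IFN-γ, and 42.2, 44.6 and 62.8 with IL-27. The IFN-γ group lay wholly below the IL-33 group, and library 3 was the highest of its group in all 3 conditions. The log2 difference with IFN-γ was -0.92 ± 0.31 (SE), 1.89-fold lower, and did not pass (adjusted p = 0.191). Il4ra fell in the model with the replicate block (adjusted p = 0.00419), and also with the block and without the libraries numbered 3 (0.0281). Each IFN-γ library stood at 0.453, 0.549 or 0.571 of its IL-33 partner, and 21.1% of all tested genes were likewise lower in all 3 pairs. With IL-27 the ratios were 0.805, 0.864 and 0.718, and the log2 difference of -0.33 did not pass (adjusted p = 0.819, and 0.197 with the block).

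Il7r (ENSMUSG00000003882.4, chr15:9435916-9459631, minus strand) encodes the α chain of the IL-7 receptor, which also joins Crlf2 to receive TSLP. It was at 38.2, 32.8 and 52.3 FPKM with IL-33 alone, 29.2, 21.3 and 40.3 with IFN-γ, and 17.5, 24.8 and 66.6 with IL-27. Library 3 was again the highest in each group, and the IL-27 libraries spanned the widest range of the 3 groups. The log2 differences of -0.45 (95% confidence interval -1.43 to 0.53) with IFN-γ and -0.38 (-1.36 to 0.60) with IL-27 did not pass (adjusted p = 0.699 and 0.867). Their wide intervals leave room for a change of more than the size seen for Il2ra with IL-27. The libraries numbered 3, which were highest for Il4ra and Il7r, are those with the high fibroblast sum, and the part this plays in either gene was not tested.

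Il9r (ENSMUSG00000020279.4, chr11:32087541-32100279, minus strand) encodes the specific chain of the IL-9 receptor. Its levels were 53.6, 53.9 and 75.1 FPKM with IL-33 alone, 40.7, 36.9 and 58.2 with IFN-γ, and 67.3, 63.4 and 63.0 with IL-27. All IFN-γ libraries lay below all IL-27 libraries, and each lay below its IL-33 partner, as 21.1% of all tested genes did. The log2 differences were -0.43 (adjusted p = 0.380) for IFN-γ against IL-33, 0.10 (0.935) for IL-27 against IL-33 and -0.53 (1) for IFN-γ against IL-27, so none passed.

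Il21r (ENSMUSG00000030745.7, chr7:132746943-132777084, plus strand), the gene of the specific IL-21 receptor chain, lies 24.0 kb after Il4ra with no annotated gene between them. It was at 0.423, 0.387 and 0 FPKM with IL-33 alone, 0.420, 0.784 and 0.8 with IFN-γ, and 0.429, 1.94 and 1.2 with IL-27. These levels correspond to roughly 0 to 4.93 fragments per library. A listed 0 was taken to allow up to 3 fragments, an assumed bound worth 1.18 to 1.29 FPKM, and most libraries lay below it. Its mean of 0.709 FPKM was under the minimum of 1 FPKM for the test.

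The groups of a receptor gene were also compared by overlap. Between IFN-γ and IL-33 alone, 1 receptor gene was wholly higher (Il15ra) and 2 wholly lower (Il2ra and Il4ra), against 11.9% and 8.65% of all tested genes. Between IL-27 and IL-33 alone, Il15ra was wholly higher and Il2ra wholly lower, against 8.29% and 5.72%. Between IFN-γ and IL-27, Il15ra was wholly higher and Il2rb and Il9r wholly lower, against 5.5% and 4.03%. In that direct comparison 0 of 7 receptor genes passed limma, as did 0 of all 11014 genes (0%), of which 483 had an unadjusted p under 0.05. With the block, 6 genes were higher (0.0545%) and 14 lower (0.127%), none of them receptor genes. The median log2 difference of the 7 receptor genes was -0.43 with IFN-γ, 0.10 with IL-27 and -0.16 in the direct comparison, where the medians of all genes were 0.03, 0.01 and 0.01.

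The order of the receptor genes by level differed between the groups. With IL-33 alone Il2ra (928 FPKM) was followed by Il2rg (262 ± 56.7, SD, n = 3) and Il2rb (166 ± 31.5), with no overlap between neighbours. Il4ra (63.8 ± 20.5) and Il9r (60.9 ± 12.3) then overlapped, and Il7r (41.1 ± 10.1), Il15ra and Il21r followed without overlap. With IFN-γ the ranges of Il2ra and Il2rg overlapped, and so did those of Il15ra, Il9r, Il4ra and Il7r from each to the next. With IL-27 Il2ra and Il2rg again overlapped, Il2rb and Il9r stood apart from their neighbours, and Il4ra, Il7r and Il15ra overlapped. There the lowest Il9r value (63.0 FPKM) and the highest Il4ra value (62.8), both from IL-27 library 3, nearly met. Il2ra ranked 240 among all genes with IFN-γ and 183 with IL-27.

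**Figure D3:**
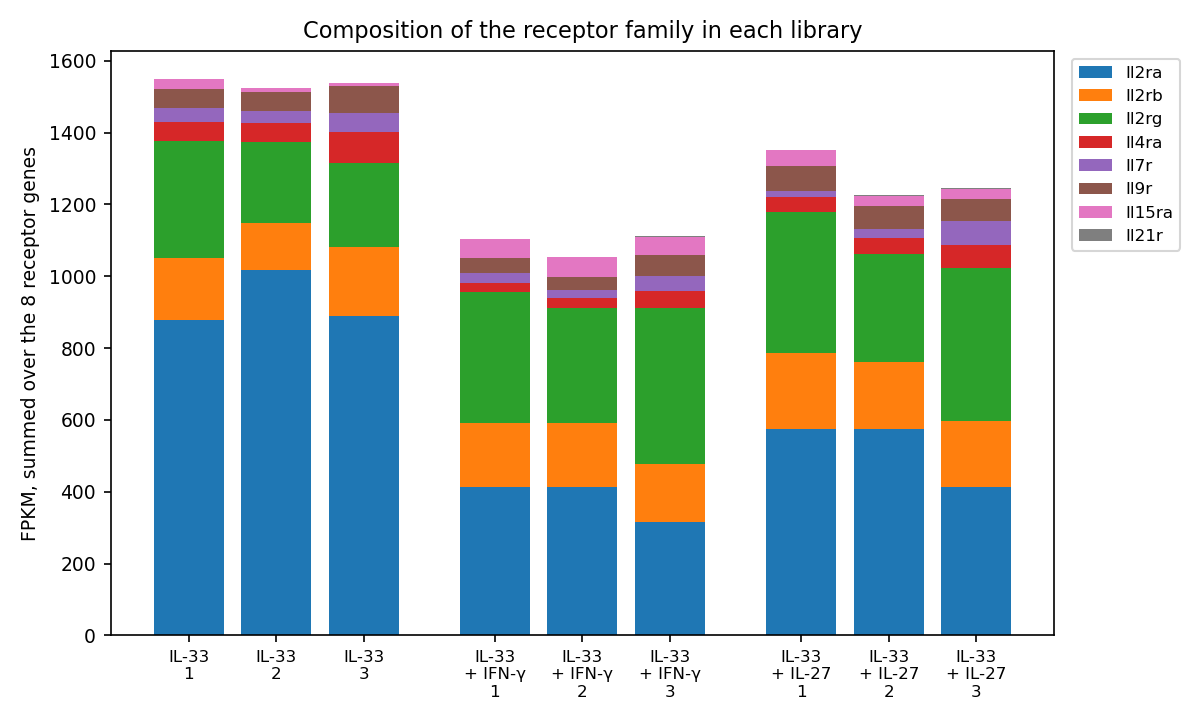
FPKM of the 8 receptor genes stacked for each of the 9 libraries, grouped by condition, with the library number under each bar. The bars are between 1525 and 1551 FPKM with IL-33 alone, 1054 and 1111 with IFN-γ and 1226 and 1352 with IL-27, and the Il2ra segment at the bottom differs the most between groups.

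The 8 genes together summed to 1551, 1525 and 1538 FPKM with IL-33 alone, 1105, 1054 and 1111 with IFN-γ, and 1352, 1226 and 1245 with IL-27. Il2ra made up 60.4 ± 5.54% (SD, n = 3) of that sum with IL-33 alone, 35.0 ± 5.85% with IFN-γ and 40.9 ± 7.04% with IL-27. The share of Il2rg was 17.0 ± 3.55%, 34.1 ± 4.40% and 29.2 ± 4.88%, and that of Il15ra 1.02 ± 0.698%, 4.90 ± 0.299% and 2.68 ± 0.609%. Shares of one sum are not independent, so a lower share of Il2ra raises the shares of the other genes.

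Ratios of receptor chains within a library do not depend on how the library was scaled. The ratio of Il2ra to Il2rg was 2.68, 4.51 and 3.82 with IL-33 alone, 1.14, 1.29 and 0.726 with IFN-γ, and 1.47, 1.93 and 0.972 with IL-27. The IL-33 group lay above both others. The ratio of Il2ra to Il15ra, the α chains of the IL-2 and IL-15 receptors, was 31.4, 85.9 and 124 with IL-33 alone, 7.74, 7.502 and 6.11 with IFN-γ, and 12.6, 19.6 and 14.7 with IL-27, and the 3 groups did not overlap. The ratio of Il15ra to Il2rb was 0.161, 0.0903 and 0.0374 with IL-33 alone, 0.299, 0.309 and 0.317 with IFN-γ, and 0.216, 0.158 and 0.153 with IL-27. Here the IFN-γ libraries were the highest, and IL-33 library 1 reached into the IL-27 range. On the log2(FPKM + 1) scale each of the other 7 genes was compared with Il2rg in exact two-sided permutation tests, 21 in all. With 3 libraries against 3 the smallest p such a test allows is 0.1, and the smallest adjusted p was 0.233, so the tests could not pass. With IFN-γ against IL-33 alone the ratio was wholly lower for 4 of the 7 genes (Il2ra, Il4ra, Il7r and Il9r), as it was for 25.2% of all tested genes, and wholly higher for Il15ra, as for 2.65%. With IL-27 against IL-33 alone it was wholly lower for 2 (Il2ra and Il4ra), against 20.4% of all genes, and higher for 0, against 1.61%. Between IFN-γ and IL-27 it was wholly lower for Il9r, against 2.62%, and wholly higher for Il15ra, against 3.2%. Il2rg itself, the denominator, had a 1.43-fold higher level in both groups, which did not pass, so these shares are the base against which the counts of lower ratios are read. Relative to Il2rg, Il2ra was lower by a log2 ratio of -1.81 with IFN-γ and -1.36 with IL-27, and Il4ra by -1.43 and -0.84.

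**Figure D4:**
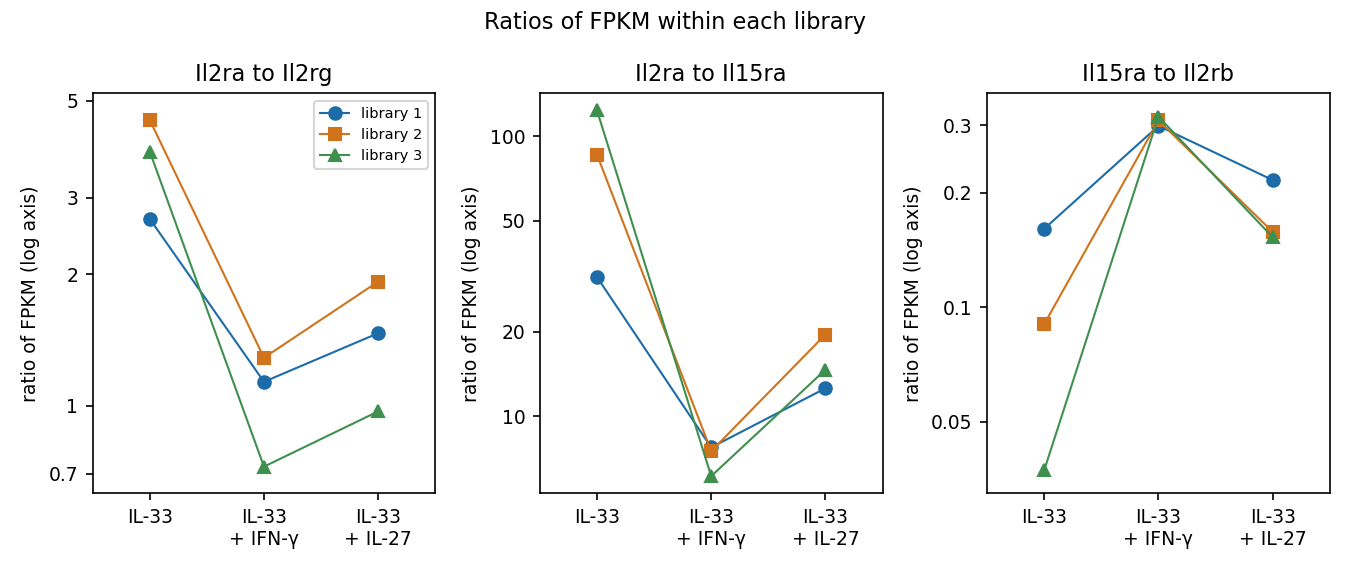
Ratio of FPKM between 2 receptor genes within each library (log axis) for Il2ra to Il2rg, Il2ra to Il15ra and Il15ra to Il2rb, with the 3 libraries of each group as symbols and lines joining libraries of one number. In the first 2 panels all IL-33 libraries lie above the libraries with a second cytokine (2.68 to 4.51 and 31.4 to 124 with IL-33 alone), and in the third the IFN-γ libraries are the highest (0.299 to 0.317).

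By profile over the 9 libraries, genes near to Il2ra outside the family included Nln and Eif2b1. Likeness was measured as the root mean square difference of log2(FPKM + 1), each gene centred on its IL-33 mean, and was 0.177 and 0.211. Nln, which encodes the peptidase neurolysin, had 14.8, 19.8 and 12.1 FPKM with IL-33 alone, 5.93, 7.11 and 4.6 with IFN-γ, and 8.36, 10.2 and 8.1 with IL-27. The genes nearest to Il15ra were Lpin2 (0.312), H2-Q6 (0.342) and Icam1 (0.368). Icam1, which encodes an adhesion molecule, had 28.3, 25.5 and 21.5 FPKM with IL-33 alone, 101, 83.1 and 95.1 with IFN-γ, and 78.6, 54.7 and 44.1 with IL-27. H2-Q6 belongs to a family of near-identical MHC class I genes, so its reads may be shared with others.

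Of the 8 ligand genes of these receptors, 3 were expressed highly enough to be tested, and 1 of them passed: Il13 fell after IFN-γ, where 0.717% of all tested genes fell. IL-13 signals through Il4ra and not through the common gamma chain. It was at 11034, 6582 and 5428 FPKM with IL-33 alone and at 2511, 3132 and 3348 with IFN-γ, so the groups did not overlap. The log2 difference was -1.30 (adjusted p = 0.0282). That call was lost without IL-33 library 1 (0.0530) or 2 (0.0699), without IFN-γ library 1 (0.109), 2 (0.0894) or 3 (0.0723), and without IL-27 library 2 (0.0557). It was also lost without the libraries numbered 3 (0.0669, but 0.0298 with the block), with no filter on low genes (0.0933), with no intensity trend (0.0528) and with only the 2 groups fitted (0.0699). Il9 was at 2029, 233 and 305 FPKM with IL-33 alone, 36.5, 42.5 and 108 with IFN-γ, and 106, 44.9 and 52.2 with IL-27. Its highest value by far was IL-33 library 1. The log2 differences of -3.22 with IFN-γ (adjusted p = 0.0534) and -3.04 with IL-27 (0.129) did not pass. Both passed with the replicate block (0.0234 and 0.0459), and the first also with only genes averaging 5 FPKM or more tested (0.0469) and with the block in the libraries numbered 1 and 2 (0.0442), where the second did not (0.108). Il4, at 17.7 to 60.2 FPKM, had a log2 difference of -0.34 with IFN-γ (adjusted p = 0.692). Il2 was at 2.76, 1.26 and 0 FPKM with IL-33 alone and listed at 0 in the 6 other libraries. A single fragment adds 0.513 to 0.562 FPKM to a gene of 2 kb, so these Il2 values rest on few fragments. Il2 was not tested, and the 0 values do not show a loss. Il7 and Il15 reached at most 0.908 and 0.942 FPKM, and Il21 and Tslp were listed at 0 throughout.

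Of the 3 partner chains outside the family, only Crlf2, the TSLP receptor chain that pairs with Il7r, was high enough to be tested. It was at 25.4, 33.2 and 39.3 FPKM with IL-33 alone, 40.5, 56.2 and 66.5 with IFN-γ, and 43.2, 43.1 and 54.9 with IL-27. All IFN-γ and IL-27 libraries lay above all IL-33 libraries. The log2 difference of 0.71 with IFN-γ did not pass (adjusted p = 0.175) and passed with the block (0.0117), though not with the block and without the libraries numbered 3 (0.0875), and that of 0.53 with IL-27 did not pass (0.522). Il13ra1 and Il13ra2, the other chains of the IL-13 receptors, reached at most 0.6 and 0.7 FPKM.

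None of the 8 JAK and STAT genes used by these receptors passed in either comparison with IL-33. Jak3, the kinase bound to the common gamma chain, had a log2 difference of 0.20 (adjusted p = 0.861) with IFN-γ, and Jak1 one of -0.16 (0.670). Stat5a was at 81.6, 41.3 and 39.5 FPKM with IL-33 alone and 31.5, 23.8 and 31.7 with IFN-γ. Its log2 difference of -0.81 did not pass (adjusted p = 0.225) and passed with the block (0.0425). Stat5b (-0.06, adjusted p = 0.927) and Stat6 (0.05, 0.956) showed small differences.

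Among 10 negative regulators of cytokine receptors, 1 rose with IFN-γ and 0 fell, against 2.19% and 0.717% of all tested genes. The gene that rose was Socs1, a feedback inhibitor of JAK kinases. It was at 8.01, 4.59 and 3.90 FPKM with IL-33 alone and at 30.9, 50.1 and 41.1 with IFN-γ (log2 difference 2.71, adjusted p = 7.07e-04). With IL-27 Socs1 was at 16.3, 14.7 and 14.2 FPKM, wholly between the other groups, and its log2 difference of 1.35 did not pass (adjusted p = 0.0520). It passed with the block (0.0278, but 0.191 without the libraries numbered 3), without IL-33 library 1 (0.0270), at a pseudocount of 0.1 (0.0472) and with only genes averaging 5 FPKM or more tested (0.0370). Cish, a feedback gene induced by STAT5, was at 67.6 to 144 FPKM over all libraries and had a log2 difference of 0.26 (adjusted p = 0.712) with IFN-γ. With the block 2 of the 10, Socs2 (log2 difference -0.98, adjusted p = 0.0416) and Socs3 (-1.83, 0.00136), fell with IFN-γ, against 4.66% of all genes. Neither passed without the block (0.0879 and 0.249). With the block and without the libraries numbered 3, Socs2 did not pass (0.192) and Socs3 did (0.0127). Of 10 tested adaptors and kinases after these receptors 0 passed in either comparison. The median log2 difference with IFN-γ was 0.12 over the JAK and STAT genes, 0.15 over the negative regulators and -0.06 over the adaptors.

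Of 21 tested genes known to respond to IL-2, IL-7 or STAT5, 2 rose with IFN-γ, 2 fell and the other 17 missed the threshold, with a median log2 difference of 0.18. Of all tested genes 2.19% rose and 0.717% fell. Ikzf2, the gene of the transcription factor Helios, rose from 3.58 ± 1.28 to 14.0 ± 0.23 FPKM (SD, n = 3, log2 difference 1.76, adjusted p = 0.00710). Ccnd3, a D-type cyclin gene, rose from 102 ± 17.0 to 184 ± 9.01 FPKM (0.86, adjusted p = 0.0267). Tnfrsf8, the gene of the TNF receptor family member CD30, fell from 89.8 ± 32.1 to 11.1 ± 5.20 FPKM (-2.94, adjusted p = 0.00370), and Osm, the gene of the cytokine oncostatin M, from 174 ± 14.2 to 89.5 ± 22.1 FPKM (-0.97, adjusted p = 0.0338). These 4 genes moved in both directions, and whether this relates to the fall of Il2ra was not tested. With the replicate block 6 of the 21 were higher and 4 lower with IFN-γ, against 6.51% and 4.66% of all tested genes. The 6 include Lta, which was listed at 0 in IL-33 libraries 2 and 3 and passed the filter mainly through the IFN-γ group. With IL-27 0 of 21 passed, and with the block 2 were higher and 2 lower, against 3.37% and 1.78%. Pim1, a kinase gene induced by STAT5, had log2 differences of 0.66 (adjusted p = 0.189, and 0.0432 with the block) with IFN-γ and 0.99 (0.0903, and 0.0155 with the block) with IL-27. With the block and without the libraries numbered 3 it passed in neither (0.199 and 0.0878). The calls of Ikzf2 and Tnfrsf8 held in each of the 9 omissions of a library, and without all libraries numbered 3 the adjusted p of Ikzf2 was 0.0797 (0.0302 with the block). That of Ccnd3 was lost without IL-33 library 2 (0.0930) or 3 (0.0589), IFN-γ library 1 (0.0682), 2 (0.102) or 3 (0.0990), or IL-27 library 2 (0.0502). It was also lost without the libraries numbered 3 (0.152, and 0.0572 with the block), with no intensity trend (0.0603) and with only the 2 groups fitted (0.0671). That of Osm was lost without IL-33 library 1 (0.0985), 2 (0.0790) or 3 (0.0895), IFN-γ library 1 (0.116) or 2 (0.129), or IL-27 library 2 (0.0606), with no intensity trend (0.0656) and with only the 2 groups fitted (0.0699).

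Other cytokine receptor families served as a comparison. Of 11 tested subunits of the common beta chain, gp130, IL-10 and interferon receptor families, 1 rose and 1 fell with IFN-γ. Of all tested genes 2.19% rose and 0.717% fell. With the replicate block 2 of the 11 were higher and 3 lower, against 6.51% and 4.66% of all genes. The 7 common gamma chain genes had 1 and 1, and with the block 1 and 2. Calls added by the block were Il27ra (log2 difference 0.87, adjusted p = 0.0184), Csf2rb (-1.92, 0.0457) and Csf2rb2 (-1.55, 0.0258). Csf2rb was at 2.34, 2.25 and 10 FPKM with IL-33 alone and 0.849, 0 and 0.2 with IFN-γ. Csf2rb2 was at 2.88, 2.74 and 7.2 FPKM with IL-33 alone and 0.572, 0.427 and 1.1 with IFN-γ. Both passed the filter largely through the IL-33 group and were near the floor with IFN-γ. Their calls, and their part in the 3 lower, are therefore not support. Il12rb1, a chain of the IL-12 and IL-23 receptors, rose from 71.2 ± 29.5 to 207 ± 45.2 FPKM (SD, n = 3, log2 difference 1.58, adjusted p = 0.0213). Il10ra, the ligand-binding chain of the IL-10 receptor, fell from 30.6 ± 12.1 to 7.91 ± 1.64 FPKM (-1.76, adjusted p = 0.0171). The call of Il12rb1 was lost without IL-33 library 2 (0.0699) or 3 (0.0572) and without IFN-γ library 1 (0.0657), 2 (0.0521) or 3 (0.0915), and that of Il10ra without IL-33 library 1 (0.0695) or IFN-γ library 2 (0.0752). Without the libraries numbered 3 neither passed (0.179 and 0.126), and with the block both did (0.0409 and 0.0201). With IL-27 both differences, 1.46 and -1.50, did not pass (adjusted p = 0.0594 and 0.0661) and passed with the block (0.00637 and 0.00737), though not with the block and without the libraries numbered 3 (0.0687 and 0.0617). Without IL-33 library 1 the adjusted p of Il12rb1 with IL-27 was 0.0268, and that of Il10ra was 0.0249 without IL-33 library 2 and 0.0489 with only genes averaging 5 FPKM or more tested.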

How the data were processed

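RNA sequencing was analysed in 9 libraries, 3 per group. Per the submitters' processing notes, Bowtie2 2.1.0, TopHat2 2.0.8, Cufflinks 2.1.1 and build mm9 were used, with no roles or parameters; the gene annotation is not given in the sources used here. The deposited values were taken as FPKM, normalised by the authors, because Cufflinks is named, its header word is present, and the decimal values are never negative and sum differently per library; the unit itself is not written in the files. The tables of the libraries numbered 3 have 1 decimal and a digit-grouping comma, which was removed.

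The 11014 of 23234 genes whose mean over the 9 libraries was 1 FPKM or more were tested on log2(FPKM + 1) with limma 3.58.1 in R 4.3.3 (3 groups fitted together, eBayes with trend, two-sided, Benjamini-Hochberg adjustment over all tested genes, threshold 0.05). Folds are on the log2(FPKM + 1) scale and understate changes of low genes. The labels do not say that equal numbers belong together, and a pairing by number was taken from the values. Deviations from group means correlated at 0.128 to 0.367 in the 9 same-number pairs and at -0.298 to -0.0251 in the 18 others. Such deviations cancel within a group, so positive same-number values push the others below zero, and these are not separate support. The number was therefore also used as a block. Ratios were compared by exact permutation tests with scipy 1.17.1. The fit was tested on simulated data. Gene positions came from GENCODE vM1 and start-site windows from RefSeq. Alternatives were another pseudocount, filter, scaling, variance trend and set of groups, and omitted libraries; the fit with the block and without the libraries numbered 3 was chosen after seeing the data. The receptor genes and gene lists were chosen with earlier results of these data known. All receptor genes were named, and of the lists the genes that passed in any comparison, up to 4 with the smallest adjusted p, and defining ligands, JAKs and STATs. The 3 genes of nearest profile were sought for each receptor gene that passed; 1 of them is not reported here.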

Additional observations from a re-analysis of the deposited data

How the results depend on the processing

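Over the 7 tested receptor genes and 3 comparisons, 378 alternative values were computed: 352 kept their direction and side of the threshold, 10 lost and 5 gained a call, and 11 changed sign. For 44 list gene results, 718 of 792 values kept both, 38 lost and 23 gained a call, and 13 changed sign. The cause of these changes was not tested.

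With IFN-γ against IL-33 alone, 241 genes were higher and 79 lower. The replicate block gave 717 and 513, the libraries numbered 1 and 2 gave 148 and 28, these libraries with the block gave 132 lower, and fitting only the 2 groups gave 39 lower. Omitting a single library gave 134 to 238 higher and 27 to 71 lower. The receptor gene count of 1 higher became 0 with no filter, with only the 2 groups, and in the libraries numbered 1 and 2 with or without the block, and was 0 to 1 over omissions. The count of 1 lower became 2 with the block, with all libraries or with those numbered 1 and 2, and stayed 1 in each omission.

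With IL-27 against IL-33 alone, 100 genes were higher and 13 lower. The block gave 371 and 196, the libraries numbered 1 and 2 gave 65 and 3, these with the block gave 154 and 34, fitting only the 2 groups gave 59 higher, and leaving out the variance trend gave 8 lower. Omissions gave 46 to 115 higher and 4 to 13 lower. The receptor gene count of 0 lower became 1 with the block, with all libraries or with those numbered 1 and 2. The count of 0 higher was 0 to 1 over omissions.

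With IFN-γ against IL-27, 0 genes were higher and 0 lower. The block gave 6 and 14, no filter 1 and 1, no trend 1 and 1, the libraries numbered 1 and 2 gave 1 and 1, and these with the block 1 and 2. Omissions gave 0 to 1 in each direction. The log2 ratio of Il21r to Il2rg moved from -0.12 to 0.82 with IFN-γ and from 0.23 to 1.41 with IL-27 at a pseudocount of 0.1.

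Changes of sign were all among differences that did not pass, and came with the omission of a library unless stated. Over the omissions the log2 difference with IFN-γ ranged from -0.081 to 0.195 for Il2rb, -0.121 to 0.529 for Jak3, -0.191 to 0.0376 for Stat5b, -0.137 to 0.18 for Stat6 and -6.37e-04 to 0.542 for Cish. That with IL-27 ranged from -0.921 to 0.014 for Il7r, -0.136 to 0.0317 for Jak1, -0.197 to 0.0157 for Stat5b, -0.0872 to 0.455 for Cish, -0.516 to 0.858 for Socs3 and -0.173 to 0.0495 for Osm. In the direct comparison it ranged from -0.142 to 0.111 for Il2rg and from -0.462 to 0.473 for Il7r. There Il2rg was also -0.0084 with median-of-ratios scaling and -0.00285 in the libraries numbered 1 and 2 with or without the block, in which Il7r was 0.249. Beyond the calls given with the results, the block gave further calls for list genes, not all of which are named. Among them were Ikzf2 and Tnfrsf8 with IL-27 (0.0385 and 0.0102, but 0.158 and 0.0907 without the libraries numbered 3). With IFN-γ against IL-33 they included Il1rl1 (log2 difference -0.74, 0.00486), Ccnd2 (0.56, 0.0363), Lta (2.00, 0.0285) and Irs2 (-0.86, 0.0327). In the direct comparison they included Il1rl1 (-0.91, 0.0361), Socs3 (-1.96, 0.0247), Tnfrsf8 (-1.84, 0.0247) and Pim2 (1.89, 0.0213). The block changed no other call of the 7 tested common gamma chain receptor genes. At this depth, genes near 1 FPKM, Il21r among them, could not be compared.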
